A study of Mus musculus with 6 samples.

Results

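Mast cells carry granules filled with proteases and display the high-affinity receptor for IgE, and 8 genes of that kind were followed here on 6 mouse arrays. They were the tryptase gene Tpsb2, the chymase genes Cma1 and Mcpt4, the carboxypeptidase gene Cpa3, the IgE receptor chain genes Fcer1a and Ms4a2, the growth factor receptor gene Kit and the histamine-forming enzyme gene Hdc. Of the 22690 probe sets in the value table, 11 were annotated to these genes alone: 5 genes had 1 probe set each, and Tpsb2, Kit and Hdc had 2. The 8 genes are 8 of 12393 that had a probe set of their own. They were picked because several protease genes were higher in miR-34a samples while Kit and Ms4a2 were not, so the same comparison chose them. Their differences are therefore given as a description, with no test.

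The comparison set 3 miR-34a arrays against 3 vector arrays. Both groups are 344SQ, a metastatic mouse lung cancer line of KP origin with high Zeb1, so every sample rests on 1 line. The miR-34a group overexpressed that microRNA by induction, and the vector group carried a control vector. The labels conflict on what was sampled. Primary tumours of injected mice stand in the design text, and tumours in the miR-34a titles, but the remaining labels name 344SQ cells in culture. Strain and age of any host, the inducer and its timing were not stated. Separate animals or cultures are not named for the replicates, so each p-value speaks for variation among these 6 arrays alone, some or all of it possibly technical. In a bulk sample, fewer cells of a type and less RNA per cell cannot be told apart.

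Mast cells develop from bone marrow progenitors and finish maturing in tissues, where Kit and its ligand sustain them. Antigen bound by IgE cross-links the receptor, whose alpha chain (Fcer1a) binds IgE and whose beta (Ms4a2) and gamma (Fcer1g) chains pass the signal on. The granules then release histamine and proteases. In mice the connective tissue type of mast cell stores the chymases of Cma1 and Mcpt4 with the tryptase of Tpsb2 and the carboxypeptidase of Cpa3, and the mucosal type stores the chymases of Mcpt1 and Mcpt2. Basophils, which are blood granulocytes, also carry the IgE receptor and make the protease of Mcpt8.

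The mature sequence of the expressed microRNA is shown because it defines the groups. It is given 5' to 3' from RefSeq (GRCm38.p6), with its seed, bases 2 to 8, in capitals.
mmu-miR-34a-5p, chr4:150068473-150068494, plus strand: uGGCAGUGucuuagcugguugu

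Promoter windows are shown for Cpa3, Cma1 and Fcer1a, whose values were separated between the groups, and for Mcpt4 and Ms4a2, whose values overlapped. Each runs from 250 bases before to 50 after the gene start, from RefSeq (GRCm38.p6), 5' to 3' on the gene's strand. The table held 7 of the 8 genes, all but Tpsb2. Capitals mark a GATA motif, searched on both strands in 4 forms, AGATAA first, AGATAG second, TGATAA next and TGATAG last. GATA1 and GATA2 are transcription factors of mast cells.
Cpa3, chr3:20242132-20242431, minus strand: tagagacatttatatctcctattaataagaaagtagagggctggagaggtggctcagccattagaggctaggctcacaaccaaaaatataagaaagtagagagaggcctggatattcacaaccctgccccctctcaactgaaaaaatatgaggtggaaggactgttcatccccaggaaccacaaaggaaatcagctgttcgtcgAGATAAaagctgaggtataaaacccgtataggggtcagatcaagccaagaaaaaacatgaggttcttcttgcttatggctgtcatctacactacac
Cma1, chr14:55944626-55944925, minus strand: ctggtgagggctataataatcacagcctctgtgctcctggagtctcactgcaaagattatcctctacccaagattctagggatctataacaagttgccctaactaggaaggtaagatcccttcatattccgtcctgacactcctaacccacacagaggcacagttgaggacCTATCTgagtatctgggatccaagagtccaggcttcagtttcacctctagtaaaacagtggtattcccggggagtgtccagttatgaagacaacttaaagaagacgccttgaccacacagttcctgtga
Fcer1a, chr1:173227180-173227479, minus strand: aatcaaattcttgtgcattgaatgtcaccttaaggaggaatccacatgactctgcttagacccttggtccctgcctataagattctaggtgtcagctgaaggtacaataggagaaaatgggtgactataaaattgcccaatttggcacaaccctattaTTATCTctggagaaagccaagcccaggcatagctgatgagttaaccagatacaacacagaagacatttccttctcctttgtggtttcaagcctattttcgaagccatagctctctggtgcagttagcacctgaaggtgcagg
Mcpt4, chr14:56062261-56062560, minus strand: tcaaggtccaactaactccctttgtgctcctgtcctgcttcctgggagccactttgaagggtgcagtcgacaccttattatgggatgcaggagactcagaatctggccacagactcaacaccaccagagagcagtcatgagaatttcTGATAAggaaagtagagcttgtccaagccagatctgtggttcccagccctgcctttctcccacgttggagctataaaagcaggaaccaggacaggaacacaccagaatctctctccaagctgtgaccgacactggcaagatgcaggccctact
Ms4a2, chr19:11623670-11623969, minus strand: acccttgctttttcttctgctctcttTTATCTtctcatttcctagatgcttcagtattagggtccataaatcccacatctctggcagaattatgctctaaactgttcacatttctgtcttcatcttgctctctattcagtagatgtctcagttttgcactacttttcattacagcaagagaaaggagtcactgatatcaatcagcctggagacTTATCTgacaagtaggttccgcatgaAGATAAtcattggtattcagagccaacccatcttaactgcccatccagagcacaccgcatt

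At least 1 GATA match was found in 6 of the 7 genes, and in 29.8% of the 32851 windows of all genes. It began at -46 from the start in Cpa3, -79 in Cma1, -92 in Fcer1a and -103 in Mcpt4. Ms4a2 held 3 matches, the nearest at -11, Hdc held 1 at -221, and the windows of Kit held 0. The genes with separated groups and those without thus both held the motif. An E-box, CANNTG, was found in 5 of the 7 genes, and in 72.3% of all windows. A match says only that the letters are there.

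Values are the probe set intensities deposited by the authors, on a linear scale. Differences are miR-34a minus vector in log2(intensity + 16). The array medians ran from 466.7 to 484.2. Vector 1 stood apart, with correlations across genes of 0.969 to 0.972 with the other vector arrays, against 0.992 or more between any other arrays of 1 group. For Actb, the 3' control probe set exceeded the 5' one, a measure of RNA degradation, by 0.54 to 0.59 in log2 in miR-34a arrays and by 0.34 to 0.60 in vector arrays, which overlap. For Gapdh the same measure was 0.098 to 0.12 in miR-34a arrays and -0.054 to 0.069 in vector arrays, which do not overlap, and its part in the differences was not tested. Each difference of the 8 genes is also given without vector 1.

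Of the 8 genes, the protease genes Tpsb2, Cma1 and Cpa3 had the largest differences, at low vector intensities. Tpsb2, which encodes the tryptase also called mMCP-6, had intensities of 1698, 1061 and 1189 in miR-34a arrays, against 110, 89.2 and 93.3 in vector arrays. Every miR-34a value lay above every vector value, and the mean was 1316 ± 337 in miR-34a arrays and 97.5 ± 11.0 in vector arrays (SD, n = 3 each). The log2 difference was 3.53 ± 0.177 (SE), and 3.61 without vector 1. Each SE given here is the moderated one of the limma fit, whose variance borrows from all genes. It is not the SE of the gene's own SDs. The second Tpsb2 probe set did not show this. It read 165, 178 and 181 in miR-34a arrays, against 172, 156 and 158 in vector arrays, values that overlap and differ by 0.10 in mean log2. This probe set was dim throughout. It read below the lower quartile of the array's probe sets in every vector array and in miR-34a 1. In miR-34a 2 and 3 it lay little above that quartile, which was 170 and 177. Probe sequences were not used here, so which probe set reads which Tpsb2 transcript was not tested.

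Cma1 encodes the chymase mMCP-5. It had intensities of 1046, 620 and 718 in miR-34a arrays, against 95.1, 86.6 and 82.5 in vector arrays. The groups did not overlap, and the log2 difference was 2.93 ± 0.183 (SE), or 2.98 without vector 1. Cpa3, which encodes the mast cell carboxypeptidase that trims peptides in the granule, had 821, 534 and 561 in miR-34a arrays, against 99.99, 79.6 and 81.4 in vector arrays. Again every miR-34a array was the higher, by 2.65 ± 0.173 in log2 (SE), or 2.74 without vector 1. In the 3 vector arrays Tpsb2, Cma1 and Cpa3 all read below the lower quartile of their array's probe sets, which lay between 167 and 177. No detection calls were used, so these dim vector values are not told apart from background.

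Mcpt4 encodes the other chymase of connective tissue mast cells, mMCP-4. Its intensities were 1157, 600 and 969 in miR-34a arrays, against 271, 629 and 347 in vector arrays. The groups overlapped, since vector 2 lay above miR-34a 2. Unlike the 3 genes before it, Mcpt4 was not dim in the vector arrays. The log2 difference was 1.14 ± 0.341 (SE), and it depended on single vector arrays, being 0.88 without vector 1 and 1.47 without vector 2.

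Of the IgE receptor chains, the alpha chain gene was separated between the groups and the beta chain gene overlapped. Fcer1a had intensities of 196, 127 and 136 in miR-34a arrays, against 27.6, 28.4 and 26.9 in vector arrays. All 3 miR-34a values were the higher, although 2 of them still lay below the lower quartile of their array. The log2 difference was 1.93 ± 0.150 (SE), and 1.93 without vector 1. Its size rests on the pseudocount, being 2.40 with 1 and 1.23 with 64. Ms4a2, the beta chain gene, had 134, 158 and 150 in miR-34a arrays, against 156, 146 and 133 in vector arrays. These values overlap, lie below the lower quartile in all 6 arrays, and differ by 0.019 ± 0.0952 in log2 (SE), or 0.066 without vector 1.

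Kit, the receptor kinase for stem cell factor, had intensities of 330, 246 and 279 in miR-34a arrays, against 235, 298 and 300 in vector arrays on its brighter probe set. Its second probe set read 77.5, 76.4 and 78.3 in miR-34a arrays, against 85.9, 72.7 and 81.3 in vector arrays. Both overlapped between the groups, with log2 differences of 0.035 ± 0.139 (SE) and -0.037, and the first was -0.075 without vector 1. Hdc makes histamine from histidine. It had 428, 419 and 455 in miR-34a arrays, against 474, 383 and 403 in vector arrays. The second Hdc probe set read 349, 451 and 447 in miR-34a arrays, against 506, 384 and 395 in vector arrays. Hdc overlapped on both, with differences of 0.050 ± 0.09999 (SE) and -0.040, and 0.14 without vector 1 for the first. For Kit, Hdc and Ms4a2 the sign of the difference turned negative under both quantile normalization and median centring, so no direction is given for them.

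**Figure D1:**
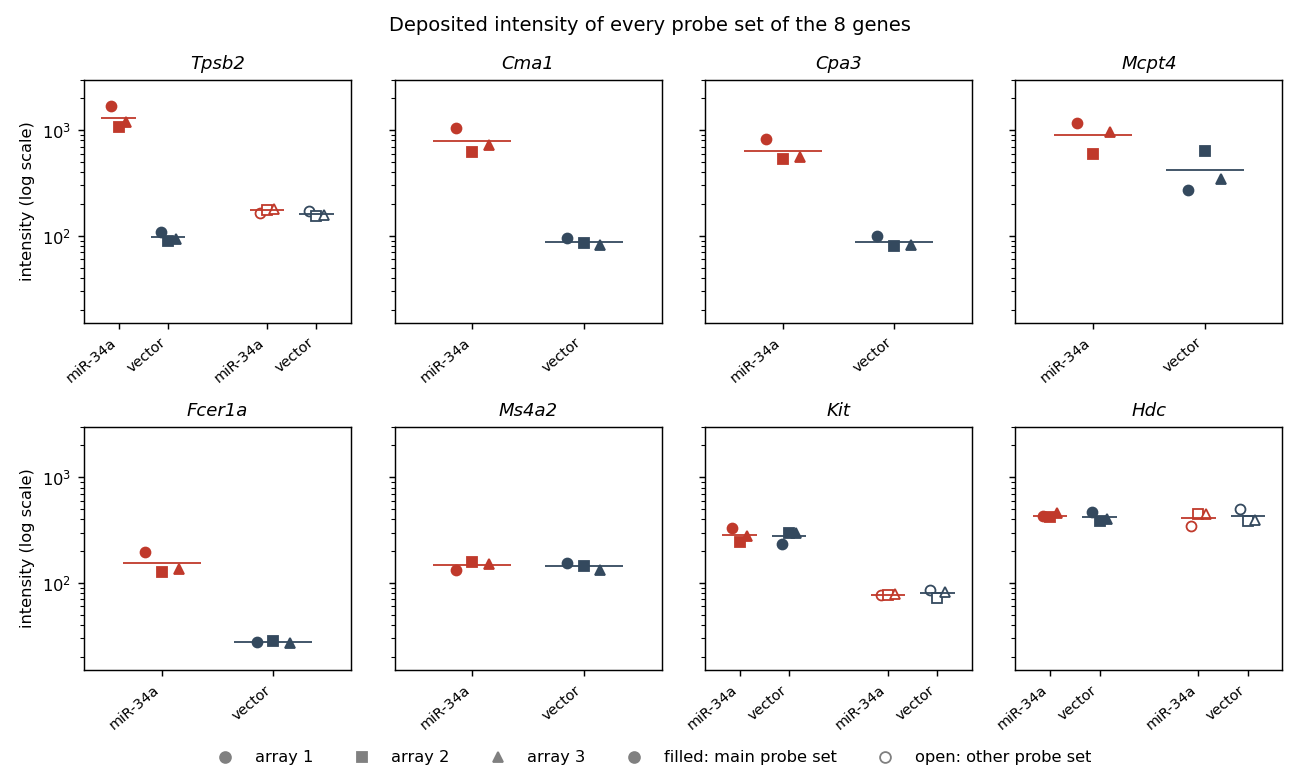
Deposited intensity (log scale) of all 11 probe sets of the 8 genes in the 3 miR-34a arrays (red, left) and the 3 vector arrays (dark, right). Symbols mark the array number, lines the group mean, and open symbols the dimmer of 2 probe sets. The miR-34a values of Tpsb2, Cma1, Cpa3 and Fcer1a on the main probe set lie above all their vector values, and the other probe sets overlap between groups.

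Among the 8 genes, 4 had every miR-34a array above every vector array, where 20.8% of all genes tested did, 14% had every miR-34a array below and 34.9% were separated either way. The fit across all genes with limma put the same number, 4, past a Benjamini-Hochberg adjusted p of 0.05 as higher, where 6.5% of all genes passed as higher, 5.25% as lower and 11.7% in either direction. As the 8 were chosen on these values, nothing is read from either count. The 4 were Tpsb2, Cma1, Cpa3 and Fcer1a. Without any 1 array, the difference ran from 3.33 to 3.67 for Tpsb2, from 2.72 to 3.09 for Cma1, from 2.46 to 2.76 for Cpa3 and from 1.76 to 2.04 for Fcer1a.

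**Figure D2:**
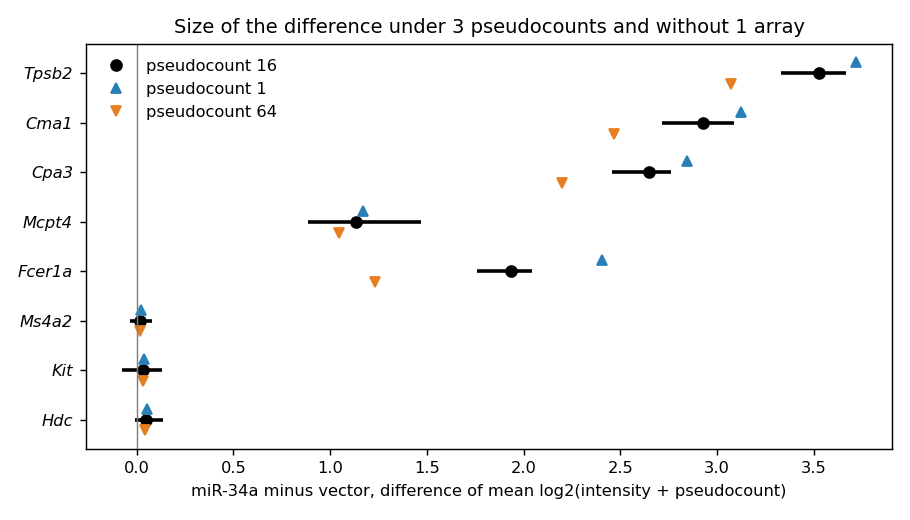
Difference of mean log2 intensity, miR-34a minus vector, for the main probe set of each gene. Circles use a pseudocount of 16 with bars for the range when each array is left out in turn, and triangles use pseudocounts of 1 and 64. Tpsb2, Cma1, Cpa3, Mcpt4 and Fcer1a stay above 0 throughout, and the bars of Ms4a2, Kit and Hdc cross 0.

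The 3 miR-34a arrays also differed among themselves, which is not the difference the genes were picked for. Array miR-34a 1 was the highest and miR-34a 2 the lowest of the 3 for Tpsb2, Cma1, Cpa3, Mcpt4, Fcer1a and Kit, 6 of the 8 genes. That order held in 14.99% of all genes. The ratio of miR-34a 1 to miR-34a 2 was 1.60 for Tpsb2, 1.69 for Cma1, 1.54 for Cpa3, 1.93 for Mcpt4 and 1.54 for Fcer1a. Over all genes the median ratio was 0.978 and the 97.5 percentile 1.43. These 5 genes thus lay above that percentile, and 1.94% of all genes had a ratio of 1.5 or more, a mark set after the values were seen. For Kit the ratio was 1.34, for Hdc 1.02 and for Ms4a2 0.848. This describes a pair of arrays and has no test, and the miR-34a values in it are among those the genes were picked on. The order and the pair of arrays are those that these genes themselves show, so the shares give no separate support. The second Tpsb2 probe set went the other way, with 165 in miR-34a 1 and 178 in miR-34a 2. Both values were dim, near the lower quartile of 170 in each of these arrays. The genes share these arrays, so they are not independent observations.

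**Figure D3:**
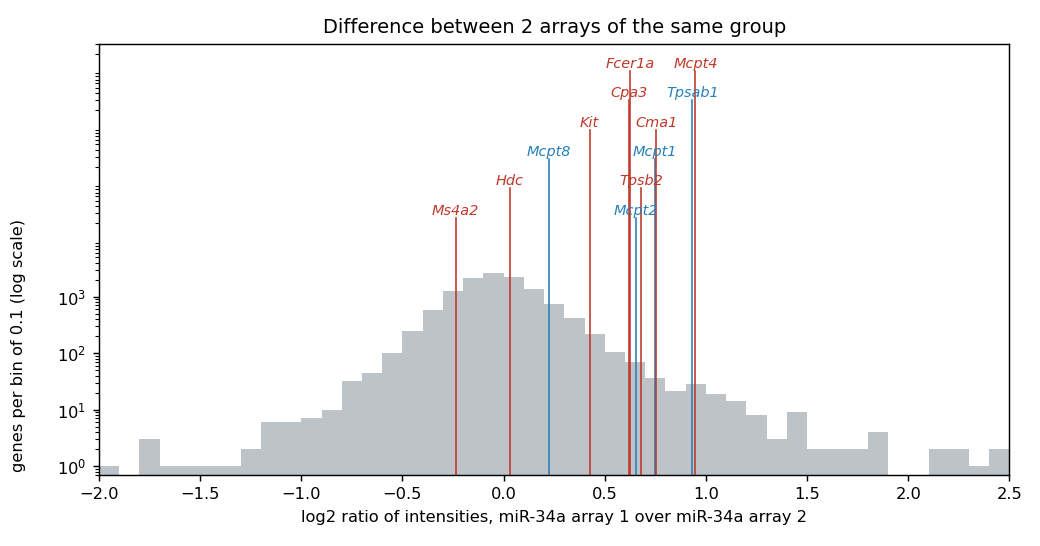
Log2 ratio of intensity in miR-34a array 1 over miR-34a array 2 for all genes tested (gray bars, genes per bin of 0.1 on a log scale; 13 genes fall outside the bins). Red lines mark the 8 genes and blue lines 4 other protease genes. Tpsb2, Cma1, Cpa3, Mcpt4 and Fcer1a, with Mcpt1, Mcpt2 and Tpsab1, lie on the right flank, and Ms4a2 and Hdc near the middle.

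Cma1 and Mcpt4 lie in 1 gene cluster, and Tpsb2 in another, so their neighbours were set beside them in the order of the RefSeq table. These neighbours were added after earlier values were seen. The chymase locus from Cma1 to Gzmc holds 23 annotated genes, of which 13 were measured. Mcpt1 and Mcpt2, the chymase genes of mucosal mast cells, lie between Cma1 and Mcpt4. Mcpt1 had intensities of 6913, 4120 and 5925 in miR-34a arrays, against 1452, 8212 and 5361 in vector arrays. Mcpt2 had 15546, 9886 and 10999 in miR-34a arrays, against 4140, 13781 and 9039 in vector arrays. Both overlapped between the groups, with vector 1 far below every other array.

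Their log2 differences were 0.46 ± 0.589 for Mcpt1 and 0.57 ± 0.414 for Mcpt2 (SE), and neither passed (limma adjusted p = 0.663 and 0.425). Without vector 1 they were -0.26 and 0.094, and without vector 2 0.98 and 0.96. Mcpt8, the basophil protease gene, had 9915, 8487 and 8847 in miR-34a arrays, against 7871, 17154 and 13711 in vector arrays. The groups overlapped since vector 1 lay below every miR-34a array, and its difference of -0.44 ± 0.264 (SE) did not pass (limma adjusted p = 0.331). Without vector 1 it was -0.76 and passed as lower (limma adjusted p = 0.00656). Mcpt1, Mcpt2, Mcpt4 and Mcpt8 thus all had their lowest value in vector 1, and Cma1 did not. The granzyme gene Gzme of this locus had it there too, at 1477 against 5488 or more in each other array. For the pseudogene Mcpt-ps1 vector 1 was lowest by little, at 132.7 against 133.1 in vector 3.

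The other measured genes of the chymase locus were the cathepsin G gene Ctsg, the pseudogene Mcpt-ps1 and 6 granzyme genes, of which 2 passed. Ctsg, the neutrophil and mast cell protease, had 107, 93.5 and 104 in miR-34a arrays, against 110, 88.1 and 91.1 in vector arrays, which overlap. Gzmd, a granzyme gene of activated killer lymphocytes, had 759, 648 and 595 in miR-34a arrays, against 342, 218 and 300 in vector arrays. It rose by 1.19 ± 0.171 in log2 (SE; limma adjusted p = 0.0100), and its adjusted p was 0.0552 without miR-34a 1. Gzmc rose by 0.45 ± 0.0944 (SE; limma adjusted p = 0.0270), a call lost without any 1 of the miR-34a arrays or vector 3 and with median centring (adjusted p = 0.103 without miR-34a 1 and 0.0581 with median centring). The remaining granzyme genes overlapped between the groups and did not pass with all arrays. Their differences were 0.50 for Gzme, 0.70 for Gzmg, 0.064 for Gzmf and -0.098 for Gzmn (limma adjusted p = 0.619, 0.341, 0.731 and 0.542). Without vector 1, Gzmg was at 1.23 and passed as higher (limma adjusted p = 0.00641). Gzme was then at -0.25 and did not pass (limma adjusted p = 0.138). Gzmg also passed with array weights (limma adjusted p = 0.0264). Granzyme genes of this cluster are close paralogs, and signal shared between their probe sets was not tested.

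The tryptase locus gave a like contrast between neighbours. Tpsab1, annotated as a transcribed pseudogene in this reference strain and adjacent to Tpsb2, had 4292, 2248 and 3435 in miR-34a arrays, against 3186, 1573 and 5095 in vector arrays. The groups overlapped throughout, and the difference of 0.12 ± 0.426 (SE) did not pass (limma adjusted p = 0.887). Without 1 array it lay between -0.33 (without vector 2) and 0.52 (without vector 3), so no direction is given. Tpsg1, the gene of a membrane-bound tryptase, had 511, 462 and 464 in miR-34a arrays, against 523, 739 and 465 in vector arrays, and overlapped too. Tpsb2 and Tpsab1 are close paralogs, and signal shared between their probe sets was not tested. The ratio of miR-34a 1 to miR-34a 2 was 1.91 for Tpsab1, 1.68 for Mcpt1 and 1.57 for Mcpt2, in the range of the proteases above, and 1.17 for Mcpt8.

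**Figure D4:**
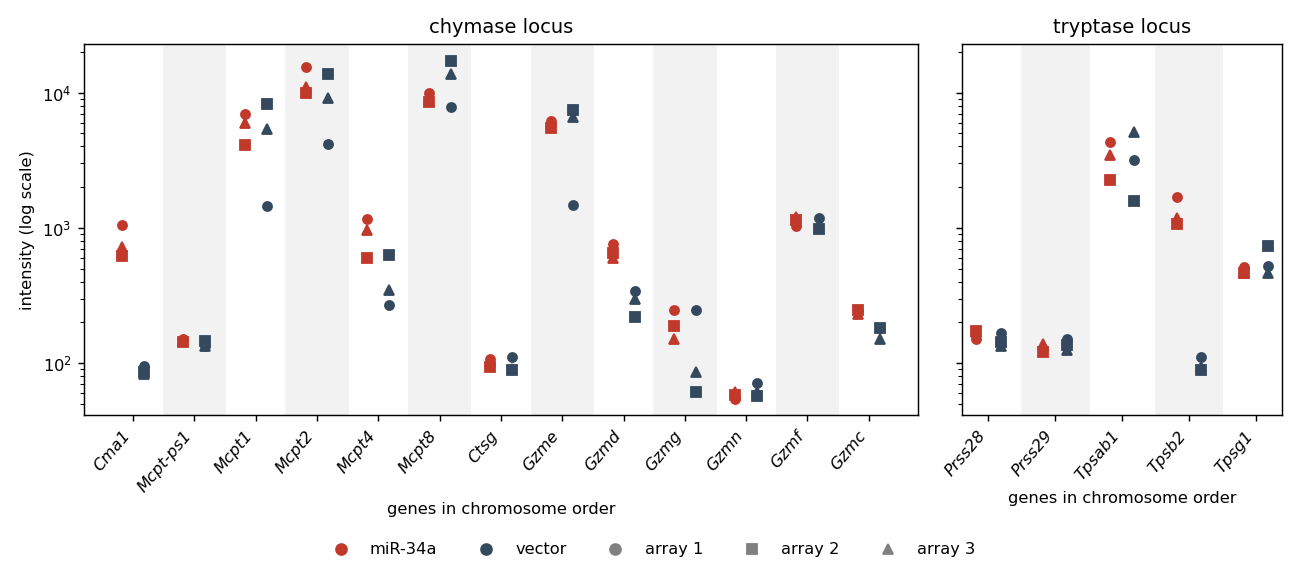
Intensity (log scale) of the measured genes of the chymase and tryptase loci in chromosome order, with miR-34a arrays in red on the left and vector arrays in dark on the right of each gene. Cma1 and Tpsb2 show separated groups, and Mcpt1, Mcpt2, Mcpt8 and Tpsab1 overlap between groups at intensities of 1452 to 17154.

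The other genes of mast cell function were described from 8 lists of pathway genes. Of their 113 measured members, 7 passed as higher and 3 as lower, or 8.85%, where 11.7% of all genes passed in either direction. The share was thus no larger than that of all genes. The median difference of the 113 was 0.12, beside 0.024 over all genes. The count depended on single arrays, being 2 without miR-34a 1 or miR-34a 3, 4 without miR-34a 2, 5 without vector 3 and 16 without vector 1. With median centring the calls were 4 higher and 5 lower, and over all genes 451 higher and 992 lower, in place of 805 and 651. Quantile normalization gave 608 higher and 804 lower over all genes.

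Among the receptor chains and signalling genes, 2 of 21 passed, both higher. Fcer1g, the gamma chain gene shared by IgE and IgG receptors and made by macrophages too, had 1848, 1820 and 2119 in miR-34a arrays, against 1216, 1457 and 1455 in vector arrays. It rose by 0.48 ± 0.108 (SE; limma adjusted p = 0.0326), a call that was lost in each of the fits without a miR-34a array or vector 3. Rabgef1, which restrains mast cell activation, rose by 0.37 ± 0.0744 (SE; limma adjusted p = 0.0250), lost in those same fits. Both calls were also lost with median centring (limma adjusted p = 0.0555 for Fcer1g and 0.0695 for Rabgef1). The calcium channel gene Orai1 at 0.43 and the kinase gene Btk at -0.30 did not pass (limma adjusted p = 0.0546 and 0.0623). Orai1 passed without vector 1, with a pseudocount of 64 and with the variance trend, and Btk passed with quantile normalization and median centring. The list's median was 0.15.

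The 2 pathway calls that were kept in all 6 fits without 1 array, Stx3 and Snap23, were both in the granule release list. Stx3, a syntaxin of the fusion machinery, had 2085, 1839 and 1957 in miR-34a arrays, against 1095, 959 and 874 in vector arrays. It rose by 1.00 ± 0.106 (SE; limma adjusted p = 0.00541), with its other probe sets at 0.20 and 0.66. Snap23, the SNAP protein gene used in mast cell exocytosis, had 714, 624 and 623 in miR-34a arrays, against 1311, 1276 and 1666 in vector arrays. It fell by 1.09 in log2 (SE 0.124; limma adjusted p = 0.00596), and its other probe sets lay between -0.97 and -0.33. The vesicle protein gene Vamp7 fell by 0.55 (SE 0.110; limma adjusted p = 0.0238), a call kept without vector 1 and lost without any other single array. These genes serve secretion in most cells, and 9 of the 12 measured genes of the list did not pass.

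Of the granule proteases and matrix genes outside the 8, 1 of 11 passed. The lysosomal protease gene Ctsd rose by 0.42 ± 0.0749 (SE; limma adjusted p = 0.0180), a call lost without miR-34a 1, miR-34a 3 or vector 3. Srgn, which encodes the granule proteoglycan core, had a difference of -0.21, Ndst2, the heparin-sulphating enzyme gene, 0.31, and the granzyme gene Gzmb 0.19. None of these 3 passed (limma adjusted p = 0.333, 0.0604 and 0.183). Of the amine genes 0 of 10 passed with limma, and 2 had an unadjusted p under 0.05. The serotonin-forming Tph1 had 227, 153 and 163 in miR-34a arrays, against 123, 132 and 127 in vector arrays. Its groups did not overlap, with a difference of 0.44 ± 0.142 (SE; limma adjusted p = 0.0928). Maoa, which breaks amines down, had 1.05 ± 0.316 (SE; limma adjusted p = 0.0772), and passed without vector 1 or vector 3. Of the prostaglandin and leukotriene genes 0 of 12 passed with limma, and 1 had an unadjusted p under 0.05. Among them were Hpgds, the prostaglandin D2 synthase gene of mast cells, at -0.10, the leukotriene helper gene Alox5ap at 0.34 and the receptor gene Ptgdr at 0.24.

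Signals that sustain and recruit mast cells gave 1 higher and 1 lower gene of 21. The interleukin-3 receptor gene Il3ra rose by 0.72 ± 0.159 (SE; limma adjusted p = 0.0314), a call lost without miR-34a 1, miR-34a 3 or vector 3. Il10 fell by 0.36 (SE 0.0825; limma adjusted p = 0.0349), kept without vector 1 and lost without any other single array or with a pseudocount of 64, at intensities of 94.3 or less in miR-34a arrays. Kitl, the Kit ligand gene, had 1888, 1638 and 1547 in miR-34a arrays, against 876, 1728 and 1617 in vector arrays. It overlapped, with a difference of 0.32 that was 0.012 without vector 1. The cytokine gene Tgfb1 at 0.40 and the receptor gene Csf2rb2 at 0.49 did not pass (limma adjusted p = 0.0604 and 0.0836), and both passed without vector 2.

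Of the lineage transcription factors 1 of 16 passed. Cebpa, which directs myeloid cells away from the mast cell fate, rose by 0.89 ± 0.229 (SE; limma adjusted p = 0.0490), a call lost without any miR-34a array or vector 2, and the difference was 0.61 without vector 1. The Cebpa call was also lost with a pseudocount of 1, quantile normalization, median centring and the variance trend (limma adjusted p = 0.0545, 0.0582, 0.0643 and 0.0558). Gata2 had a difference of 0.23 and Mitf, a regulator of protease genes, 0.69, or 0.38 without vector 1; neither passed (limma adjusted p = 0.198 and 0.122), though Gata2 passed with the mean of its probe sets, at 0.31. The other Mitf probe set lay at 0.030. Among other markers 1 of 10 passed: the heparan sulphate enzyme gene Hs6st2 rose by 1.78 ± 0.382 (SE; limma adjusted p = 0.0294), a call lost without any miR-34a array or vector 3 and with the variance trend, and the difference was 1.33 without vector 1. Its other probe sets lay at -0.060 and 0.24. Hs3st1, another such enzyme gene, had -1.12 and Cd33 0.34, and neither passed (limma adjusted p = 0.0783 and 0.0509). Both passed without vector 1, Hs3st1 at -0.68 (limma adjusted p = 0.00419) and Cd33 at 0.34 (limma adjusted p = 0.0492), and Cd33 also with a pseudocount of 1, quantile normalization or the variance trend.

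**Figure D5:**
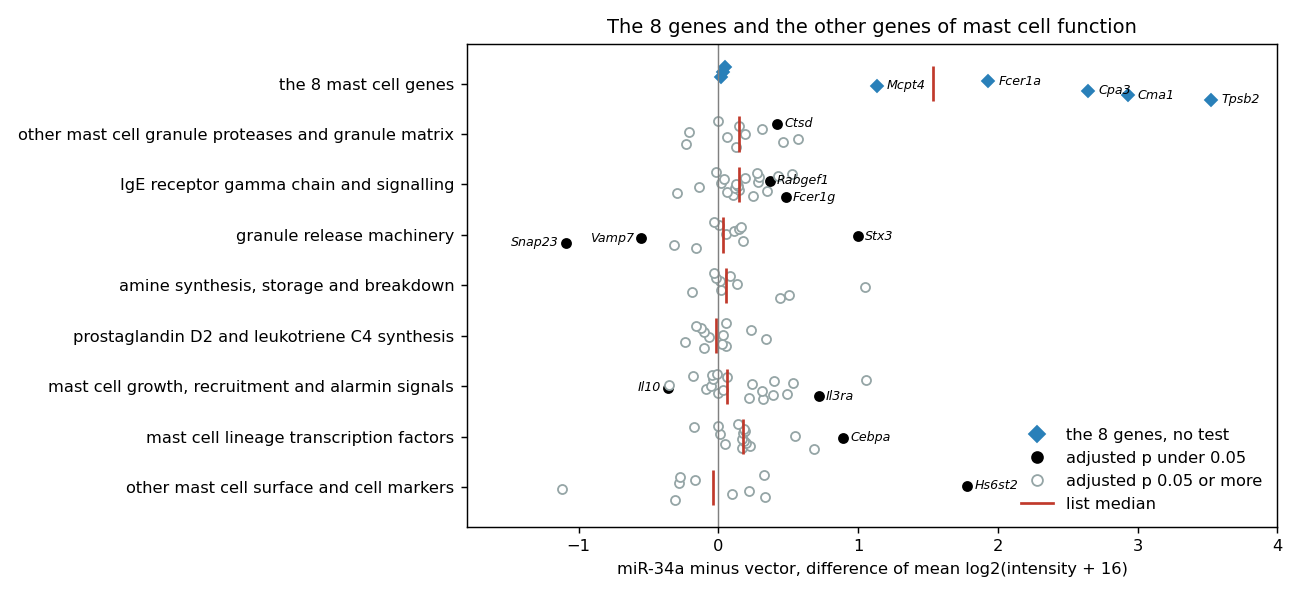
Difference of mean log2 intensity, miR-34a minus vector, for the 8 genes (blue diamonds, no test) and each measured gene of the 8 pathway lists. Black points passed a limma adjusted p of 0.05, open points did not, and red lines are list medians. The pathway lists lie around 0, with 7 genes past the threshold as higher and 3 as lower.

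The genes most like the proteases in pattern were found by distance from the mean profile of Tpsb2, Cma1 and Cpa3 over the 6 arrays, each gene centred on its own mean. The root mean square distance was 0.36 in log2 for the kinase gene Nrk, 0.43 for the Wnt inhibitor gene Wif1, 0.52 for the 5-oxoprolinase gene Oplah and 0.54 for the adhesion gene Icam1. It was 0.58 for the tight junction gene Ocln and 0.59 for the chitinase-like gene Chil4. Among the 8 genes, Fcer1a lay at 0.56, Mcpt4 at 1.04 and Kit at 1.51. Chil4 had intensities of 493, 175 and 271 in miR-34a arrays, against 59.2, 70.4 and 56.2 in vector arrays. Its ratio of miR-34a 1 to miR-34a 2 was 2.82, whereas that of Oplah was 0.838, of Nrk 1.18 and of Icam1 1.25. The other Nrk probe sets differed between the groups by 0.10 and 0.80.

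Markers of other cell types were measured in 12 lists, of which 105 genes outside the 8 were present. In these 5 passed as higher and 3 as lower, or 7.62%, where 11.7% of all genes passed in either direction, 6.5% as higher and 5.25% as lower. The share was thus no larger than that of all genes. No intensity among all probe sets lay below 1. That count of 8 was 2 without miR-34a 1 or miR-34a 3, 3 without vector 3 and 13 without vector 1. The basophil list had 0 of 4 past the threshold (limma; 0 at an unadjusted p under 0.05), with summed intensities of 9547 to 11068 in miR-34a arrays and 8834 to 18247 in vector arrays. Without vector 1 the vector sums began at 14782, above every miR-34a sum. Mcpt8 alone read 8487 to 9915 in miR-34a arrays and 7871 to 17154 in vector arrays, so these sums chiefly restate that gene. The other measured genes of the list did not fall alike, with differences of -0.0055 for Il4, -0.023 for Il6ra and 0.23 for Gata2. The fibroblast list had 2 of 10 higher, the matrix protein gene Pcolce at 0.81 and the surface protein gene Thy1 at 1.73, and sums of 39691 to 57853 in miR-34a arrays and 15461 to 47006 in vector arrays, or from 37789 without vector 1. The Thy1 call was lost without any miR-34a array or vector 3 and with the variance trend, and the Pcolce call without miR-34a 1, miR-34a 3 or vector 3. The list's median ratio of miR-34a 1 to miR-34a 2 was 1.40. The skeletal muscle list had 0 of 8 (limma; 3 at an unadjusted p under 0.05), sums of 1919 to 5693 in miR-34a arrays and 1712 to 2340 in vector arrays, and a median ratio of 1.86. These tissue markers thus also varied among the miR-34a arrays, but not all in the same order. The muscle genes Myl1 and Ckm were highest in miR-34a 3, at 465 and 784, against 277 and 592 in miR-34a 1. Pcolce and Thy1 were highest in miR-34a 1, and the other genes of these lists are not given by array here. The part of these markers in the protease values was not tested.

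Of 16 macrophage genes, the receptor gene Fcgr1 and the complement gene C1qb were higher and the mannose receptor gene Mrc1 lower. Mrc1 was at -0.99 ± 0.0814 (SE, limma adjusted p = 0.00264), a call kept in all 6 fits without 1 array. C1qb is named after its value was seen, at 1.13 ± 0.284 (SE, limma adjusted p = 0.0463). Its values without single arrays are not given here. The macrophage list had sums of 30130 to 34543 in miR-34a arrays and 21152 to 30589 in vector arrays, or from 29306 without vector 1. The neutrophil list had S100a9 lower, at -2.98, of 10, with sums of 3038 to 3413 in miR-34a arrays and 4003 to 10939 in vector arrays. S100a9 read 186 to 251 in miR-34a arrays and 868 to 5270 in vector arrays. S100a8, which did not pass with all arrays, read 349 to 369 in miR-34a arrays and 558 to 2745 in vector arrays. Without vector 1, S100a8 was at -0.68 and passed as lower (limma adjusted p = 0.00326). The gap between the sums rests largely on both genes, and the list's median difference was -0.083. S100a9 was at -2.23 without vector 1, and its call was lost without any miR-34a array and with the variance trend (limma adjusted p = 0.0721 for the trend). The Fcgr1 call was lost without any miR-34a array or vector 3. The T and NK cell list had Klrc1 lower, at -3.00, of 13, with sums of 4859 to 5138 in miR-34a arrays and 5667 to 6075 in vector arrays. Klrc1 itself read 118 to 153 in miR-34a arrays and 1043 to 1434 in vector arrays, so the gap between the sums rests largely on this gene. Of the 13 genes, 8 had differences above 0. The adipocyte list had Pnpla2 higher, at 0.37, of 5, a call kept only without vector 1 among the fits without 1 array and lost with median centring, with sums of 3755 to 3866 in miR-34a arrays and 3036 to 3640 in vector arrays. The other Pnpla2 probe set lay at -0.20, and the mean of both gave 0.084 and did not pass (limma adjusted p = 0.563). The eosinophil, dendritic cell, B and plasma cell, melanocyte and endothelial lists had 0 past the threshold of 7, 10, 6, 7 and 9 (limma; 1, 1, 0, 0 and 2 at an unadjusted p under 0.05). The dendritic cell sums were 33616 to 37700 in miR-34a arrays and 6517 to 29272 in vector arrays, or from 28795 without vector 1, and did not overlap. The largest differences in that list were 1.22 for H2-Aa, 1.18 for H2-Ab1 and 1.07 for Cd74, none of which passed. Its other genes ran from -0.11 for Xcr1 to 0.24 for Itgax, and the list's median was 0.12. Melanocytes also make Kit, and the melanocyte sums were 2345 to 2562 in miR-34a arrays and 2274 to 2409 in vector arrays. The part of these lists in the values of the 8 genes was not tested.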

How the data were processed

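Per the labels and the design text, RNA of 6 samples was measured on Affymetrix mouse arrays. The authors deposited intensity values on a linear scale for 22690 probe sets; how they were summarised and normalized is not given in the sources used here. The array medians lie close together, so no further scaling was applied. Groups and replicate numbers come from the titles. Probe sets were named from the platform annotation, updated by Entrez identifier through the GRCm38.p6 RefSeq table: 20393 had 1 symbol, 691 several and 1606 none. The 64 control probe sets were left out, and each of 12393 genes was represented by its probe set with the highest mean log2 value over the 6 arrays.

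The scale was log2(intensity + 16), on which changes of dim genes come out too small. A single limma model (version 3.58.1, under R 4.3.3; lmFit, then eBayes without trend or block) covered every gene, and its two-sided p-values were adjusted by Benjamini-Hochberg across the whole table, with 0.05 as the threshold. Each SE is the moderated one after eBayes, so it draws on the variance of all genes and not on that gene alone. The number of arrays, 3 per group, limits precision. The 8 genes and the lists (257 symbols, 221 measured) were chosen with earlier results of these data known.

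Genes outside the 8 were named by rule: every pathway gene that passed, up to 2 others per pathway list and up to 2 per marker list by smallest unadjusted p, a fixed set of mast cell genes, and the 6 genes nearest in profile. The neighbours in the 2 loci were added later. Some genes named beside the sums of the marker lists were also added after their values were seen. Of the fixed set, Il1rl1, Slc18a2, Alox5 and Mrgprb1 had no probe set of their own here. Promoters and the microRNA are from RefSeq. Figures were drawn with matplotlib 3.10.9. Alternatives were other pseudocounts, quantile normalization, median centring, dropping dim genes, averaging a gene's probe sets, array weights, a variance trend with robust estimation, blocking on replicate number and leaving out each array.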

Additional observations from a re-analysis of the deposited data

How the results depend on the processing

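Counts past the threshold moved with the arrays used. Without 1 array they ran from 226 to 2133 over all genes (1456 with all), from 2 to 16 for the pathway genes (10) and from 2 to 13 for the other cell type markers (8), and from 4 to 5 for the 8 mast cell genes (4). Over all genes, leaving out miR-34a 1, 2 or 3 gave 255, 667 or 226, and leaving out vector 3 gave 631. Array weights gave 3238 for all genes, 28 for pathway genes and 16 for markers. The robust variance trend gave 5 for markers. With the replicate number as a block the counts were 522 for all genes, 3 for pathway genes and 5 for markers, and 4 of the 8 mast cell genes. The pathway calls lost under the block were Ctsd, Rabgef1, Fcer1g, Il3ra, Cebpa, Vamp7 and Il10. Same-numbered arrays did not deviate together (correlations across genes of -0.168, -0.0935 and -0.0812), so the numbers are not read as pairs.

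With the lowest 40% of genes left out, 2 of the 8 genes, Mcpt4 and Hdc, remained and 0 of these passed, since the filter removes the other 6. The cause of the other moves was not tested. For the 8 genes 108 of 114 alternative values moved by less than 1 SD, taken as the larger of the 2 group SDs. Many of these values could not move. The variance trend and the block leave each difference as it was. Averaging probe sets does so for the 5 genes with 1 probe set, and the filter for the 2 genes it keeps. The count is thus no measure of stability. The mean of both Tpsb2 probe sets gave 1.82 in place of 3.53. For the other named genes 923 values stayed on their side of the threshold, 81 no longer passed, 46 newly passed, and no called value changed sign. Dim vector intensities limit the size given for Tpsb2, Cma1, Cpa3 and Fcer1a.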
